A study of Mus musculus with 18 samples.

Results

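The genes described here encode the protein subunits of the cytosolic ribosome, measured in the left ventricle of mice without the microprotein NBDY and of wild-type mice. They were chosen by name, as every measured gene with a standard large-subunit (Rpl), small-subunit (Rps), stalk (Rplp0, Rplp1, Rplp2) or Rpsa symbol, leaving out Rpl3, Rpl22 and rows named as pseudogenes. This gave 75 of the 10597 genes in the tables, 44 of the large and 31 of the small subunit.

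The knockout group was 5 mice labelled mORF4/NBDY KO (hearts 6 to 10) and it was compared with 4 WT mice (hearts 1 to 4). All were untreated C57BL/6 males aged 20 weeks. How the allele was made and whether the wild-type mice were littermates are not given in the sources used here. Each heart gave 1 library of poly-A RNA and 1 library of ribosome footprints, the short RNA pieces that a translating ribosome protects from nuclease, 18 libraries in all.

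Every ribosome holds about equal amounts of its proteins, one from each gene family, around a core of ribosomal RNA. Their mRNAs are abundant and short and, in mammals, belong to the TOP class: transcription starts at a C followed by an unbroken stretch of pyrimidines, the 5′ terminal oligopyrimidine motif. Through this motif, the kinase mTORC1 and the RNA-binding protein LARP1 move TOP mRNAs in and out of translation together. NBDY is known in human cells as a partner of the mRNA decapping machinery in P-bodies. Ribosomal protein genes have also left many processed pseudogenes in mammalian genomes, copies whose sequence can be close to that of the parent mRNA.

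Of the 75 genes, 56 had an entry in the RefSeq promoter table of the GRCm38.p6 build, with 65 annotated starts between them. An unbroken run of at least 7 C or T was sought on the transcribed gene's own strand. It had to lie at least in part within 30 bases of the annotated start. Such a run was found in 50 of these 65 (76.9%), against 12759 of 32851 promoters of all genes (38.8%). These are shares of starts and not of genes. Where starts of the same gene lie close together, as in Rpl35a, the same run was counted more than once. The median longest run was 10 bases in the ribosomal protein promoters and 6 bases in all promoters. The following 30-base stretches show that run in capitals. They come from genes whose RNA was higher in knockout hearts (Rpl15, Rpl13, Rpl37a), genes whose RNA was lower (Rpl11, Rps6, Rpsa), and genes in whose footprints heart 7 was the lowest and heart 8 the highest of the knockout hearts (Rpl4, Rps9). The last, Rps3, had the same order of these hearts and has a shorter run in this window. Counted from the annotated start, the runs begin at base -28 in Rps3, -16 in Rpl13, -6 in Rps9, -4 in Rpl15 and -1 in Rps6. They begin at base 14 in Rpl11, 21 in Rpsa, 24 in Rpl37a and 27 in Rpl4. A run away from the start need not be the TOP motif.
Rpl15: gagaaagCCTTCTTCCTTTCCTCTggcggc
Rpl13: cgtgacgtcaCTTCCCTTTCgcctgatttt
Rpl37a: cgcattgcgTCCCTTCCTCTTCggacttgg
Rpl11: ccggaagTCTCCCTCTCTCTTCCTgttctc
Rps6: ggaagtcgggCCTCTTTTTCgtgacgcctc
Rpsa: tccggccgcccgTCCTTTCgcgctacccgg
Rpl4: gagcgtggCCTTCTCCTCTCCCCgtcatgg
Rps9: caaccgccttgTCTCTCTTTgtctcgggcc
Rps3: tgcaaaacttcaTTTCCCatgaacacttgc

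On GRCm38.p6, the Rpl15 stretch is chr14:18270968-18270997 on the minus strand, and the Rpl11 stretch is chr4:136053358-136053387, also minus. The Rpl13 stretch is chr8:123102324-123102353 and the Rpl4 stretch is chr9:64173405-64173434, both on the plus strand. The longest run among the 65 promoters was 21 bases. Long runs stood in genes with higher RNA (17 bases in Rpl15) and in genes with lower RNA (17 bases in Rpl11). Over the whole window of 250 bases before to 50 bases after the start, CGGAAG, the core of an ETS-factor element, was present on either strand in 42 of 65 promoters (64.6%), against 16.9% of all promoters. Its reverse strand reads CTTCCG, so it can overlap the pyrimidine run. The TATA element TATAAA, searched on both strands, was present in 5 (7.69%), against 13.6% of all promoters. These are letter matches in a fixed window.

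The tables hold read counts divided by a size factor for each library, called normalized reads below. Nbdy checked the labels: it had 14.3 ± 3.46 normalized footprints in knockout hearts and 183 ± 116 in wild-type hearts (SD, n = 5 and 4), and 73.5 ± 10.7 normalized RNA reads in knockout and 111 ± 7.10 in wild-type hearts. RNA libraries held 15.8 to 20.2 M reads in knockout hearts and 11.2 to 12.4 M reads in wild-type hearts. These ranges did not overlap, so effects of RNA depth and of genotype cannot be told apart. Footprint libraries held 22.9 to 40.8 M reads in knockout hearts and 6.67 to 36.7 M reads in wild-type hearts, with wild-type heart 2 the shallowest. All 6 ventricular cardiomyocyte markers were listed, and in every library their summed RNA was above that of each other marker list. Summed RNA of atrial markers was 5257 to 8852 normalized reads in knockout hearts and 15049 to 16771 in wild-type hearts. Endothelial marker RNA (11345 to 13130 in knockout, 13186 to 15190 in wild type), and that of lymphocyte and skeletal muscle markers, was also lower in every knockout heart than in any wild-type heart. Their part in the results below was not tested.

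The RNA of cytosolic ribosomal proteins differed between the genotypes gene by gene and in both directions. At an adjusted p below 0.05 (limma with Benjamini-Hochberg adjustment over 10580 genes), 57 of the 75 were called (76.0%), against 49.4% of all genes tested. RNA rose in knockout hearts for 39 of them (52.0%, against 24.3% of all genes) and fell for 18 (24.0%, against 25.1%). The share that fell was thus near that of all genes, and only the share that rose was above it. The other 18 did not pass the test. Over all 75 genes the median log2 fold change, knockout over wild type, was 0.16, against 0.01 over all genes. Values did not overlap between the genotypes for 55 of 75 (73.3%, against 40.5% of all genes). Of 44 large-subunit genes 21 rose and 11 fell, and of 31 small-subunit genes 18 rose and 7 fell. In ventricle tissue, fewer cells of a type and less RNA per cell cannot be told apart.

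**Figure D1:**
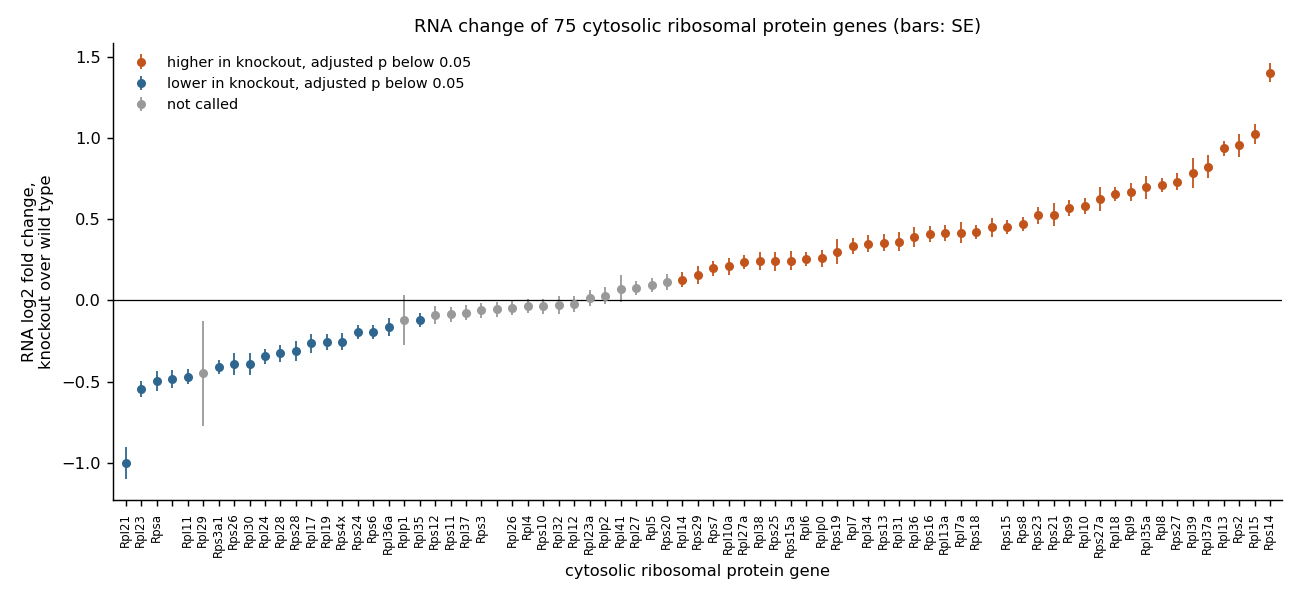
RNA log2 fold change, knockout over wild type, of each of the 75 genes (vertical axis; points are estimates, bars SE, 5 knockout and 4 wild-type hearts), sorted from lowest to highest. Orange points are the 39 genes called higher, blue the 18 called lower and grey the 18 not called; the range runs from -1.0 for Rpl21 to 1.40 for Rps14.

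Together these genes took 1.78 to 1.86% of all RNA signal in knockout hearts (mean 1.81 ± 0.0275%, SD, n = 5). In wild-type hearts they took 1.47 to 1.67% (mean 1.58 ± 0.0898%, SD, n = 4), so the shares did not overlap. This sum is a description of libraries that also differ in depth by genotype.

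The largest rise was that of Rps14, a protein of the small-subunit platform whose loss in humans underlies the anaemia of the 5q- syndrome. It had 2609, 2564, 2618, 2703 and 2573 normalized RNA reads in knockout hearts 6 to 10, against 1105, 921, 1008 and 936 in wild-type hearts 1 to 4. Every knockout heart lay above every wild-type heart, and RNA changed by 1.40 ± 0.06 (log2 fold change ± SE; limma adjusted p = 9.75e-08). Rpl15, a large-subunit protein mutated in some human Diamond-Blackfan anaemia, had 3222, 3155, 2988, 3094 and 3116 normalized RNA reads in knockout hearts and 1694, 1610, 1483 and 1355 in wild-type hearts. Again the groups were apart, by 1.02 ± 0.06 in log2 (adjusted p = 4.23e-07, limma). Rps2, which lines the mRNA entry side of the small subunit, had 3739, 3578, 3478, 3341 and 3496 normalized RNA reads in knockout hearts, against 2084, 1913, 1699 and 1615 in wild-type hearts. The difference was 0.95 ± 0.07, with no overlap (limma adjusted p = 1.58e-06).

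Rpl13, a large-subunit protein, had 4249, 4260, 4308, 4330 and 4047 normalized RNA reads in knockout hearts and 2334, 2220, 2125 and 2192 in wild-type hearts. Its log2 fold change was 0.93 ± 0.05 (limma adjusted p = 1.30e-07). The zinc-binding large-subunit protein Rpl37a had 1764, 1745, 1687, 1679 and 1768 normalized RNA reads in knockout hearts and 1123, 979, 951 and 867 in wild-type hearts, a change of 0.82 ± 0.07 (limma adjusted p = 3.00e-06). In both genes all 5 knockout hearts were above all 4 wild-type hearts. The next rises were those of Rpl39 (0.78), Rps27 (0.73), Rpl8 (0.71), Rpl35a (0.70), Rpl9 (0.67), Rpl18 (0.65) and Rps27a (0.63). Rpl18 overlaps Sphk2 in the genome, and the RNA kit did not mark strand, so its reads are uncertain. The same holds for Rpl19 (with Cacnb1), Rpl24 (Zbtb11), Rpl31 (Tbc1d8), Rpl32 (Cand2) and Rps25 (Ccdc84).

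Rpl21, a large-subunit protein, fell most. It had 636, 667, 778, 811 and 637 normalized RNA reads in knockout hearts, against 1205, 1542, 1340 and 1565 in wild-type hearts, with no overlap. Its log2 fold change was -1.0 ± 0.10 (limma adjusted p = 1.04e-05). Rpl23, which like Rpl5 and Rpl11 is known to bind MDM2 when ribosome assembly is disturbed, had 5481, 5577, 5789, 5326 and 5255 normalized RNA reads in knockout hearts and 7696, 8492, 7692 and 8133 in wild-type hearts. All knockout hearts were lower, and the change was -0.54 ± 0.05 (adjusted p = 5.63e-06, limma).

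Rpsa, a small-subunit protein also described as a laminin receptor, had 10436, 10033, 9766, 10176 and 10184 normalized RNA reads in knockout hearts. Wild-type hearts had 15735, 15202, 12819 and 13555, so the groups were apart, by -0.50 ± 0.06 (limma adjusted p = 5.61e-05). Rpl11, which enters the large subunit with 5S ribosomal RNA, had 3659, 3607, 4031, 3805 and 3655 normalized RNA reads in knockout hearts, against 5209, 5212, 5086 and 5233 in wild-type hearts. It fell by 0.47 ± 0.05 (limma adjusted p = 9.56e-06). Its partner in the 5S particle, Rpl5, averaged 4946 ± 176 in knockout and 4628 ± 50.1 in wild-type hearts (SD, n = 5 and 4) and did not pass the test (0.10 ± 0.04, limma adjusted p = 0.0855). It passed at 0.14 under quantile normalization (adjusted p = 0.0177) and at 0.12 without knockout heart 10 (adjusted p = 0.0485).

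**Figure D2:**
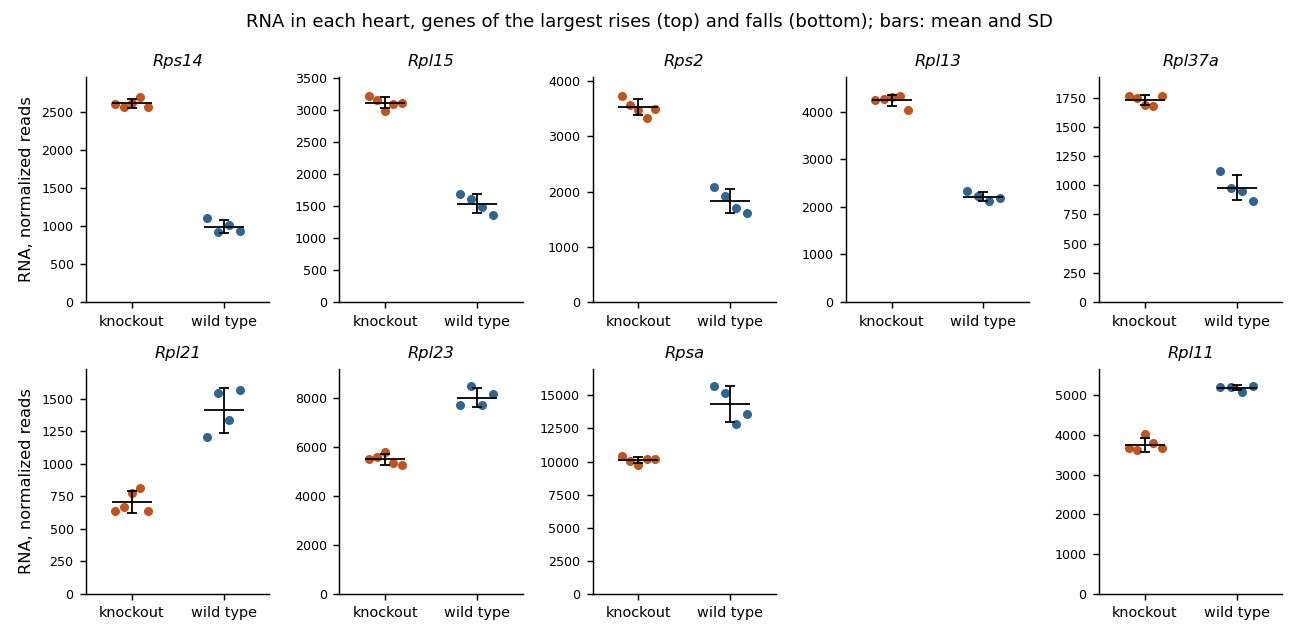
Normalized RNA reads (vertical axis, from 0) in each heart for the 5 genes with the largest called rise (top row) and 4 of the 5 with the largest called fall (bottom row); points are hearts, knockout in orange and wild type in blue, and bars are mean and SD. In all 9 genes the 5 knockout hearts and the 4 wild-type hearts do not overlap.

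Of the stalk proteins, which recruit elongation factors, Rplp0 rose to 10889 ± 682 normalized RNA reads in knockout hearts, against 9085 ± 177 in wild-type hearts (0.26 ± 0.05, limma adjusted p = 0.00167). Rplp2 had a log2 fold change of 0.03 (limma adjusted p = 0.657). Rplp1 had -0.12 ± 0.16 (limma adjusted p = 0.544), with 4564 reads in wild-type heart 4 and 7524 to 8358 in the other wild-type hearts. Without wild-type heart 4, Rplp1 passed the test at -0.32 (limma adjusted p = 0.0117). Rpl29 had the largest standard error of the 75 (0.33), with 291 to 549 normalized RNA reads in knockout hearts and 226 to 793 in wild-type hearts, and did not pass the test. Without wild-type heart 4, which held the 226 reads, it passed at -0.87 (limma adjusted p = 0.00278).

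Rps6, the small-subunit protein phosphorylated by S6 kinases downstream of mTORC1, averaged 6348 ± 188 normalized RNA reads in knockout hearts and 7251 ± 217 in wild-type hearts (SD, n = 5 and 4). It fell by 0.19 ± 0.04 (limma adjusted p = 0.00334), a call lost under quantile normalization (adjusted p = 0.107). Rps27a, made as a fusion with ubiquitin, rose by 0.63 ± 0.07 (limma adjusted p = 3.91e-05). Rps19, the gene most often mutated in human Diamond-Blackfan anaemia, rose by 0.30 ± 0.08 (limma adjusted p = 0.00671). Rpl41, which encodes the smallest ribosomal protein, had a log2 fold change of 0.07 and was not called (limma adjusted p = 0.475). On the X chromosome, Rpl39 (0.78) and Rpl10 (0.58) rose, while Rps4x (-0.25) and Rpl36a (-0.16) fell. The Rpl36a call was lost under quantile normalization (-0.08, adjusted p = 0.303) and without knockout heart 7 or 10 or wild-type heart 2 or 4 (adjusted p between 0.0513 and 0.0985).

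The tables also list 17 rows named as copies of 14 of these genes. The sources used here do not give how reads that match several places were counted. In RNA, all 17 copy rows had a log2 fold change of the same sign as their parent gene. In 12 pairs both rows were called, always in the same direction. Some copy rows nearly equalled the parent: Rps12-ps3 had 2388 normalized RNA reads in knockout and 2542 in wild-type hearts, while Rps12 itself had 2395 in knockout and 2546 in wild-type hearts. Rps27rt had 2372 in knockout and 1437 in wild-type hearts, while its parent Rps27 had 2440 in knockout and 1472 in wild-type hearts. Both rows changed by 0.73 on the log2 scale. In the footprint table, by contrast, 7 of the 17 copy rows had no read in any library, which allows up to 3 reads each. Of the 17, 13 averaged under 10 normalized footprints in both genotypes. Some copy rows did hold footprints: Rpl36-ps3 had 19.5 in knockout and 20.9 in wild-type hearts, while Rpl36 had 0.994 in knockout and 0.379 in wild-type hearts. RNA values of members with near-identical copies are therefore uncertain.

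Footprints gave few reads for these genes. They took 0.140 ± 0.0367% of all footprint signal in knockout hearts and 0.124 ± 0.0135% in wild-type hearts (SD, n = 5 and 4), with overlap. Of the 75, 61 had a mean of at least 10 normalized footprints and were tested. None of the 61 was called (limma, Benjamini-Hochberg over 9976 genes), and 0.02% of all genes tested were. At an unadjusted p below 0.05 there were 2 of 61 (3.28%, against 5.06% of all genes), and edgeR and DESeq2 on whole reads also called none. The groups overlapped in all 61, while 1.6% of all genes tested had no overlap. The median log2 fold change was 0.15, and 38 of 61 estimates were above 0 (62.3%, against 49.5% of all genes). They were 17 of 36 large-subunit genes (47.2%) and 21 of 25 small-subunit genes (84.0%). The median was 0.29 without knockout heart 7 and 0.04 without knockout heart 8, and 0.04 in the authors' deposited table. This does not show that footprints were alike: the smallest adjusted p was 0.851, and the standard error of the log2 fold change reached 1.68, for Rpl12.

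The 4 genes with the smallest unadjusted p-values follow heart by heart, and in some of them single hearts weighed much. Rps2 had 585, 208, 230, 176 and 107 normalized footprints in knockout hearts, against 176, 89.7, 174 and 66.7 in wild-type hearts, a log2 fold change of 0.92 ± 0.41 (limma adjusted p = 0.851). Knockout heart 6 was far above the rest. Rpl30, a small large-subunit protein, had 60.6, 12.5, 633, 546 and 413 normalized footprints in knockout hearts, against 4.24, 13.8, 14.0 and 508 in wild-type hearts (2.56 ± 1.19, limma adjusted p = 0.851). High and low hearts occurred in both genotypes.

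Rpl31, near the exit of the nascent chain tunnel, had 76.0, 32.7, 92.9, 56.3 and 4.97 normalized footprints in knockout hearts, against 12.1, 10.4, 18.7 and 12.1 in wild-type hearts. It was higher in all knockout hearts but heart 10 (1.45 ± 0.78, limma adjusted p = 0.851). Rpl37 of the large subunit had 501, 333, 432, 298 and 655 normalized footprints in knockout hearts and 397, 670, 810 and 561 in wild-type hearts (-0.47 ± 0.24, limma adjusted p = 0.851), with overlap.

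Translational efficiency, footprints divided by RNA, fell for 2 of the 61 genes tested in knockout hearts (3.28%, against 6.55% of all genes) and rose for none (against 7.83%). It was tested as the interaction of genotype and assay in limma. Rps14 had efficiencies of 0.358, 0.286, 0.585, 0.472 and 0.287 in knockout hearts, against 0.733, 0.877, 1.15 and 1.14 in wild-type hearts. The groups did not overlap, and the log2 difference was -1.33 ± 0.25 (limma adjusted p = 0.00136). Its footprints averaged 1043 ± 352 in knockout hearts and 962 ± 181 in wild-type hearts (SD, n = 5 and 4), so the 2 sets of footprints overlapped where the RNA did not. The Rps14 call held without any single heart (adjusted p between 0.000500 and 0.00929).

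Rpl7, a large-subunit protein, had efficiencies of 0.185, 0.176, 0.161, 0.160 and 0.208 in knockout hearts, against 0.261, 0.200, 0.220 and 0.268 in wild-type hearts. One knockout heart, heart 10, lay within the wild-type range. The log2 difference was -0.41 ± 0.13 (limma adjusted p = 0.0336), and it was lost when any of knockout hearts 6, 7, 8 and 9 or wild-type hearts 1, 3 and 4 was left out. With the heart as a block, the same 2 genes fell and 1 other gene rose. The authors' deposited table, turned to knockout over wild type, called 6 genes lower and 1 higher. Shares of all genes called with the block and in the deposited table are not given here, so these counts have no background. In the authors' deposited table Rpl11 (-2.87) and Rps28 (-3.85) were among those lower. Their footprints averaged 0.726 and 0.994 normalized reads in knockout hearts and 5.29 and 17.1 in wild-type hearts. Since these ratios divide by RNA, the differences in RNA depth and markers by genotype bear on them too, and their part was not tested.

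**Figure D3:**
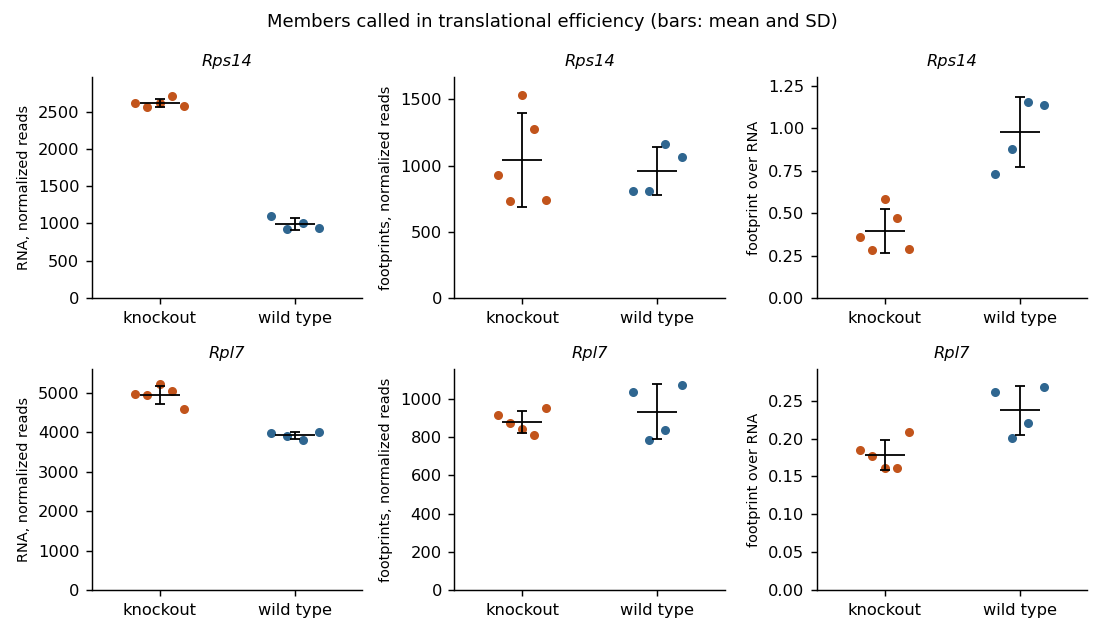
Rps14 (top) and Rpl7 (bottom) in each heart: normalized RNA reads, normalized footprints and their ratio (vertical axes from 0; knockout in orange, wild type in blue; bars are mean and SD). RNA is higher in all knockout hearts for both genes, footprints overlap between the genotypes, and the ratio averages 0.398 in knockout and 0.976 in wild-type hearts for Rps14.

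The ratio was low for most of these genes in both genotypes. It is not corrected for the lengths of the mRNA and its coding part, which were not used here. The median efficiency was 0.0243 in knockout and 0.0215 in wild-type hearts over the 75 genes, against 1.40 and 1.35 over 10580 genes. It was below 0.1 for 56 of 75 in knockout hearts (74.7%, against 8.07% of all genes) and for 58 of 75 in wild-type hearts (77.3%, against 7.87%). Footprints were at 0 in at least 1 heart for 27 members. Rpsa had none in any wild-type heart, which allows up to 3 reads in each, and in the knockout only heart 10 was above 0, with 6.62 normalized footprints. Rps6 had 2.42 ± 4.97 normalized footprints in knockout hearts and 1.11 ± 1.01 in wild-type hearts.

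The number of pseudogenes named after a gene is 1 measure of how many copies it has. For the 15 genes with none, the median efficiency was 0.0531 in knockout and 0.0349 in wild-type hearts. For the 30 genes with 1 to 3 it was 0.0340 in knockout and 0.0252 in wild-type hearts. For the 18 genes with 4 to 9 it was 0.0112 in knockout and 0.0110 in wild-type hearts, and for the 12 genes with 10 or more 0.0151 in knockout and 0.00865 in wild-type hearts. Rpl11 had no named pseudogene and still averaged under 6 footprints in both genotypes. Copies with other kinds of names were not counted, so a count of 0 is a lower limit. These levels are ratios of read counts with unknown treatment of shared reads, and the part of such reads was not tested.

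**Figure D4:**
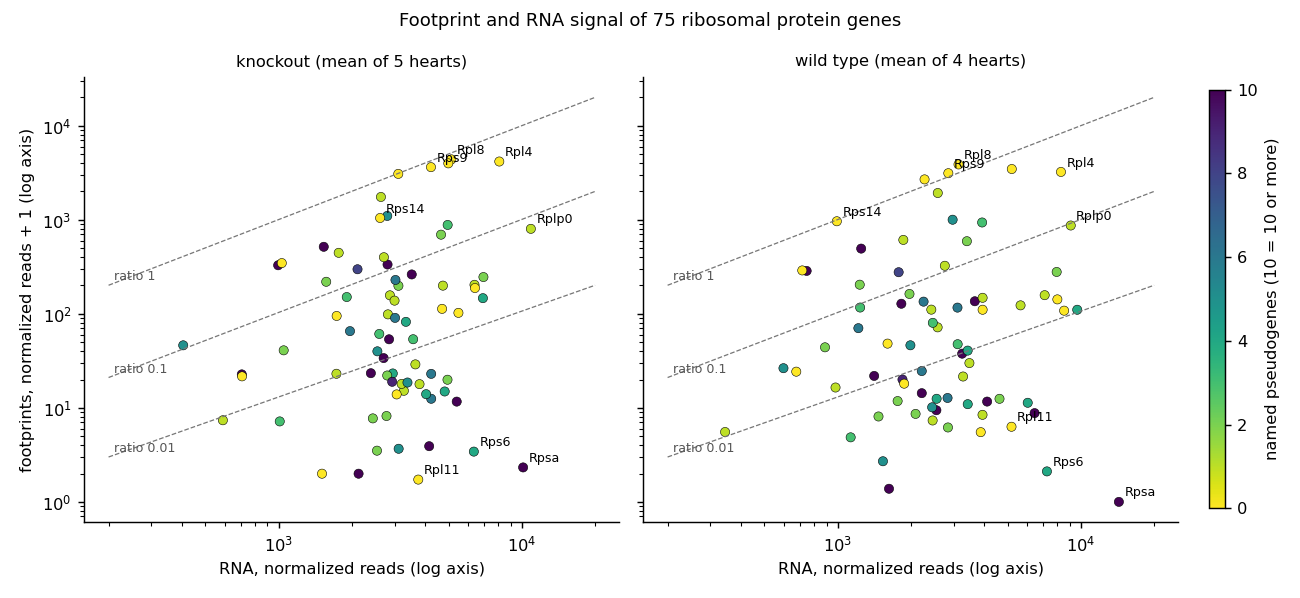
Mean normalized footprints plus 1 (vertical) against mean normalized RNA reads (horizontal), both on log axes, for the 75 genes in knockout (left) and wild-type (right) hearts; dashed lines mark footprint to RNA ratios of 1, 0.1 and 0.01, and colour gives the number of named pseudogenes. A small group, with Rpl8 and Rps9, lies near a ratio of 1, while most genes lie below 0.1 and Rpsa, with high RNA, is at the bottom.

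A few members had ratios near 1. Rpl8, close to the peptidyl transferase centre, had an efficiency of 0.855 ± 0.239 in knockout and 1.24 ± 0.305 in wild-type hearts (SD, n = 5 and 4). Rps9 had 0.849 ± 0.216 in knockout and 1.09 ± 0.121 in wild-type hearts. Rps3, at the mRNA entry, had 0.792 ± 0.213 in knockout and 0.668 ± 0.103 in wild-type hearts. None of these 3 was called between genotypes in efficiency.

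In the footprints of the better covered genes, the knockout hearts were spread out, often with heart 7 at the low end and heart 8 at the high end. The hearts, and the genes named here, were singled out after their values were seen, so no test is given. Rpl4, a protein that lines the exit tunnel, had 3827, 2286, 6659, 4902 and 3114 normalized footprints in knockout hearts 6 to 10, against 3191, 2744, 3477 and 3473 in wild-type hearts 1 to 4. Knockout heart 7 was the lowest of all and knockout heart 8 the highest. Its RNA was 7856 to 8423 normalized reads in knockout hearts and 8065 to 8492 in wild-type hearts, nearly level. Rps9 had 3817, 2406, 4846, 4392 and 2650 normalized footprints in knockout hearts, against 2801, 2709, 3639 and 3338 in wild-type hearts. It followed the order of Rpl4 at its ends, with heart 7 lowest and heart 8 highest.

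Of the 33 members with a mean of at least 100 normalized footprints, heart 7 was the lowest knockout heart in 19 (57.6%, against 20.6% of 8742 genes). Heart 8 was the highest in 20 (60.6%, against 20.8%), and both held in 15 (45.5%, against 5.95%). The median deviation from the mean of the 9 hearts was 0.03, -0.46, 0.59, 0.44 and -0.22 on the log2 scale in knockout hearts 6 to 10. Heart 9 was thus near heart 8, and heart 10 was on the low side with heart 7. In wild-type hearts 1 to 4 the median deviation was -0.17, -0.19, -0.00 and 0.05. In RNA of the same genes it ran from 0.04 to 0.15 in knockout hearts and from -0.18 to -0.07 in wild-type hearts. In RNA both ends held in 5 of 33 (15.2%, against 5.09% of all genes). The median coefficient of variation of footprints was 34.0% in knockout and 21.7% in wild-type hearts for these members, against 17.9% and 17.3% for all genes. In RNA it was 4.26% and 4.80% for the members, against 8.26% and 9.18% for all genes. Read levels were not matched in these comparisons. A mean of at least 200 footprints was reached by 21 of the 33 members, against 7395 of the 8742 genes. The part of counting error in the spreads was not tested. The depth of hearts 7 and 8 was 22.9 and 26.7 M footprint reads.

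**Figure D5:**
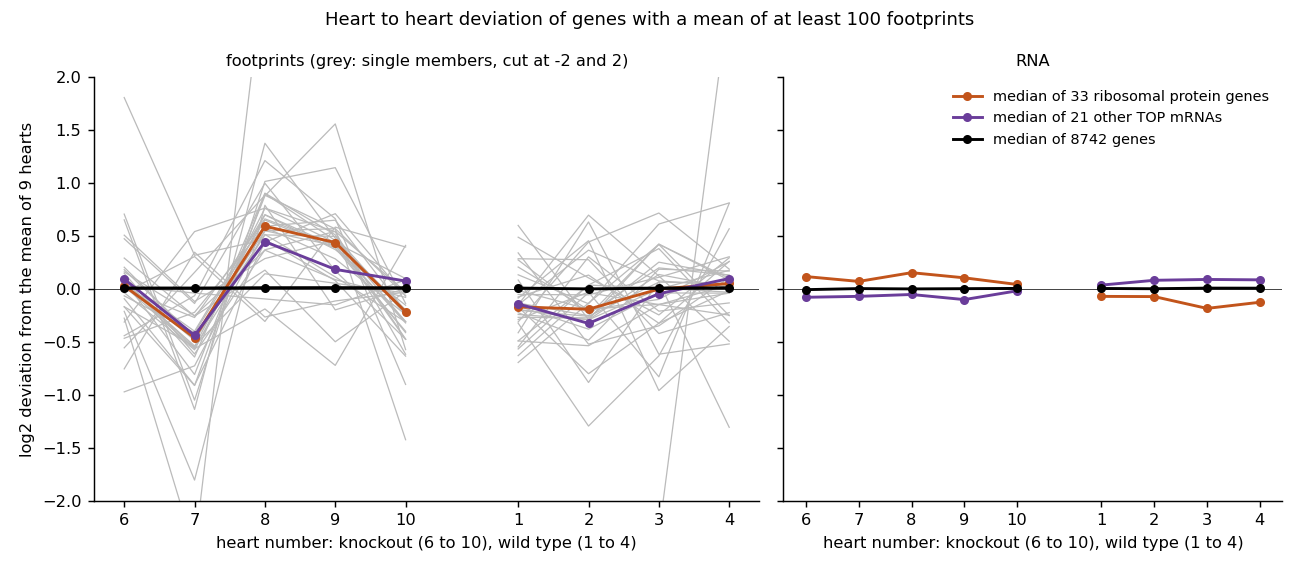
Log2 deviation of each heart from the mean of the 9 hearts (vertical) in footprints (left) and RNA (right), for genes with a mean of at least 100 normalized footprints; knockout hearts 6 to 10 stand left of wild-type hearts 1 to 4. Grey lines are single ribosomal protein genes, which leave the frame beyond -2 and 2, and coloured lines are medians of 33 ribosomal protein genes, 21 other TOP mRNAs and 8742 genes. In footprints the medians of ribosomal protein genes and other TOP mRNAs are lowest in heart 7 and highest in heart 8; in RNA they stay within 0.2 of 0.

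The other TOP mRNAs, a list of translation factors and related genes known to carry the motif, ordered the knockout hearts similarly in footprints. Of 21 such genes heart 7 was lowest in 15, heart 8 highest in 16, and both held in 11. Eef2, the elongation factor that moves the ribosome along the mRNA, had 16357, 7374, 28032, 20556 and 12618 normalized footprints in knockout hearts, against 11236, 6778, 13283 and 15793 in wild-type hearts. Rack1, a small-subunit protein outside the naming scheme, had 6284, 4012, 9957, 7530 and 5396 in knockout hearts, against 4845, 3406, 5656 and 6454 in wild-type hearts. In both genes heart 7 was the lowest knockout heart and heart 8 the highest. Among mitochondrial ribosomal proteins, whose mRNAs are not known as TOP mRNAs, both ends held in 8 of 75 in footprints and in 9 of 75 in RNA. Over all 8742 genes both ends held in 520 in footprints (5.95%) and in 445 in RNA (5.09%). The mitochondrial share was above that of all genes in both. Among assembly factors of the small subunit both ends held in footprints in 1 of 45, and of the large subunit in 3 of 50.

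Lists of genes that build, regulate or serve the ribosome were measured in the same fits. Over all genes tested in RNA, 24.3% rose and 25.1% fell in knockout hearts. Of 77 mitochondrial ribosomal proteins 30 rose (39.0%) and 18 fell (23.4%), the second share being near that of all genes. Of 23 other TOP mRNAs 5 rose (21.7%) and 12 fell (52.2%). Naca, which shields nascent chains at the tunnel exit, had the smallest adjusted p of the TOP list, at 19393 normalized RNA reads in knockout and 29119 in wild-type hearts (-0.59 ± 0.05, limma adjusted p = 4.82e-06). Of 52 large-subunit assembly factors 7 rose (13.5%) and 21 fell (40.4%). Rpf2, which brings the 5S particle into the large subunit in yeast, had 213 normalized RNA reads in knockout and 508 in wild-type hearts (-1.25 ± 0.07, limma adjusted p = 2.69e-07). Of 46 small-subunit assembly factors 7 rose (15.2%) and 17 fell (37.0%), with Nop14 at -0.72. Of 18 genes of mTORC1 and its TOP mRNA regulators 5 rose (27.8%) and 6 fell (33.3%). Rps6kb1, a kinase of Rps6, fell by 0.72 ± 0.09, and Eif4ebp1, an inhibitor of cap-dependent initiation, rose by 0.71 ± 0.12 (limma adjusted p = 5.43e-05 and 0.000558). Their footprints did not follow: Rps6kb1 averaged 504 in knockout and 417 in wild-type hearts, and Eif4ebp1 870 in knockout and 863 in wild-type hearts. Efficiency of Rps6kb1 was higher in knockout hearts (0.99 ± 0.17) and that of Eif4ebp1 lower (-0.70 ± 0.23, limma adjusted p = 0.000587 and 0.0453). The ribosomal protein paralogues, of which 4 of 6 rose (66.7%) and none fell, included Rpl22l1, with 119 normalized RNA reads in knockout and 48.7 in wild-type hearts (1.30 ± 0.18, limma adjusted p = 0.000136). No gene of these lists was called in footprints.

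In efficiency, 7.83% of all genes were higher and 6.55% lower in knockout hearts. Other TOP mRNAs had 4 genes higher (17.4%) and none lower of 23, and large-subunit assembly factors 7 higher (13.5%) and 1 lower (1.92%) of 52. For mitochondrial ribosomal proteins there were 6 higher (8.00%), near the share of all genes, and 14 lower (18.7%) of 75. Rpf2 had a log2 difference in efficiency of 1.21 ± 0.17 (limma adjusted p = 0.000115), with footprints of 456 in knockout and 474 in wild-type hearts. Naca had 0.97 ± 0.21 (limma adjusted p = 0.00406), with footprints of 23038 in knockout and 17700 in wild-type hearts. In these 2 genes, as in Rps14, RNA passed the test between the genotypes and footprints did not. RNA of these 2 genes was the lower value in knockout hearts, unlike that of Rps14. Footprints passed for 0.02% of all genes tested and RNA for 49.4%, so this pattern does not set these genes apart. It also does not show that their footprints were level.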

How the data were processed

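The build was GRCm38 (mm10) and the tools named were HTSeq, DESeq2 and STAR 2.7.1a, per the submitters' processing notes, which give no roles. The deposited RNA and footprint tables hold, per the file headers, a normalized signal per library with the authors' log2 fold changes and p-values. The deposited efficiency table holds the ratio of footprints to RNA, and its log2 values, wild type over knockout, were turned. The signal came back as whole reads at a tolerance of 0.01, from which depth was taken. For each comparison limma 3.58.1 (R 4.3.3) was fitted with a mean-variance trend to log2(value + 1) of all genes with a mean of at least 10, and was tested on simulated data. A log2 fold change on this scale understates the change of low genes. Efficiency was the interaction of genotype and assay over 18 libraries. edgeR 4.0.16 and DESeq2 1.42.0 on whole footprint reads, other pseudocounts, filters, scalings and leaving out each heart were alternatives. Per the labels, each heart number marks 1 left ventricle that gave both libraries, and their deviations from the group means correlated at 0.208 to 0.502 across 8066 genes. Gene identifiers matched a symbol in 10560 of 10597 rows.

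The members and all lists were chosen with earlier results of these data known. Genes with values per heart were the 5 largest called rises and falls in RNA, called efficiencies (up to 4 each way) and the 4 smallest footprint p-values. A few genes were named whatever their values: the stalk, Rpl5, Rpl11, Rps6, Rpsa, Rps27a, Rps19, Rpl41 and X-linked genes. Genes of other lists were among the 4 smallest adjusted p-values. Genes named for low or high efficiency, for wide spread or for the order of hearts were chosen after their values were seen, as were the next rises in RNA and the copy rows. Values of a few single genes are not reported here. Genes were compared with each other only by the ratio of footprints to RNA, with no correction for transcript or coding length. Intervals and limits of a 0 cover counting error only.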

Additional observations from a re-analysis of the deposited data

Results flagged for a closer look

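Of 36 groups of named genes and hearts examined, 4 held 1 heart far from the others, and chance gives about 1 in 20. Rpl13 RNA in knockout heart 10 was 4047 normalized reads, below the other knockout hearts and above every wild-type heart. Rpl11 RNA in wild-type heart 3 was 5086, below the other wild-type hearts and above every knockout heart. Rps2 footprints in knockout heart 6 were 585, above the other knockout hearts. Rpl30 footprints in wild-type heart 4 were 508, against 4.24 to 14.0 in the other wild-type hearts.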

How the results depend on the processing

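Under the alternatives run, 53 to 57 of the 57 RNA calls were kept and none turned its direction. Counts ranged from 37 to 42 genes higher and 14 to 18 lower, and the calls lost were those of Rpl35, Rpl36a, Rps29, Rpl14, Rps24 and Rps6. The calls gained were those of Rpl27, Rpl29, Rpl5, Rplp1 and Rps20. The median RNA log2 fold change was 0.21 under quantile normalization, against 0.16 as reported. No footprint call appeared under any alternative, but the median footprint log2 fold change was 0.29 without knockout heart 7 and 0.04 without knockout heart 8. In efficiency, the count of genes higher was 0 to 2 when single hearts were left out: 2 without knockout heart 7 (Rps3a1, Rps4x), 2 without knockout heart 10 (Rpl31 among them), 1 without wild-type heart 2 and 2 without wild-type heart 4 (Rpl30 among them). The count lower was 1 to 2, and Rps14 was called each time. With the replicate block 1 gene was higher and 2 were lower. The authors' deposited table gave 1 higher and 6 lower. For these alternative counts in efficiency, the shares of all genes called are not given here. The median efficiency difference was -0.26 to 0.05 without single hearts. The causes were not tested. The order of hearts 7 and 8 held in 12 of 21 members with a mean of at least 200 footprints (57.1%, against 5.86% of all genes) and in 21 of 61 at a mean of at least 10 (34.4%, against 6.00%). It held in 15 of 33 under TMM factors and under quantile normalization; these 4 alternatives were chosen after seeing the data. A footprint library held 7361 to 56423 reads of these genes.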
